A study of Mus musculus with 6 samples.

Results

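The enzymes that write, copy and erase DNA methylation were followed in mouse A2.Snail ESCs as they left the naive state, with and without dox-induced Snail. The 8 genes were Dnmt1, Dnmt3a, Dnmt3b, Dnmt3l, Uhrf1, Tet1, Tet2 and Tet3, taken with all of their probe sets that carry a single gene symbol: 20 of the 34945 such probe sets and of the 45037 probe sets on the array. Dnmt3a has 5 of them, Tet1 4, Dnmt1 3, Dnmt3b, Uhrf1 and Tet2 2 each, and Dnmt3l and Tet3 1 each.

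A2.Snail is an ESC line, made by Cre-mediated insertion into A2lox cells, with a Snail cDNA under the control of doxycycline (dox). All cultures were grown as embryoid bodies in serum with DKK, a Wnt inhibitor. The DKK + dox cultures received dox at 250 ng/mL on day 2, and the DKK cultures received none. RNA was collected 6, 12 and 24 hours later (days 2.25, 2.5 and 3) and hybridised to Affymetrix Mouse 430 2.0 arrays, 1 array per condition and time. A difference at a single time is therefore a difference of 2 arrays with no replicate check. The ESCs had been maintained on feeder layers and were passaged once without them before differentiation. There was no array of undifferentiated ESCs and none without DKK, so the time course starts at day 2.25.

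DNA methylation in mammals is laid down on unmethylated CpG sites by DNMT3A and DNMT3B, with DNMT3L as a catalytically inactive partner that stimulates them, and is copied onto the new strand after replication by DNMT1, which UHRF1 brings to hemimethylated sites. The TET dioxygenases oxidise 5-methylcytosine, a step that leads to its removal. The passage from naive pluripotency to the epiblast state is known as a period in which the genome gains methylation through DNMT3A and DNMT3B, while Dnmt3l and Tet2 are known as genes of the earlier state.

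The values are linear intensities, and changes are those of log2(intensity + 20.6). The 20.6 added equals the 25th percentile over all arrays and makes changes of dim probe sets look smaller than they are. Values at or under 37.2, the 40th percentile, are called low signal. All 20 probe sets exceeded that limit on at least 1 array, as did 26362 probe sets in all, and 18 exceeded it on every array. These 26362 were fitted with limma, with the time points as a factor and a dox difference proportional to the time since dox; each fitted dox difference is the value of that line at 24 hours, and the time coefficients are the fitted DKK levels. The fit leaves 2 residual degrees of freedom. Its p-values set each fitted value against the departure of the 6 arrays from that form, moderated by the spread of the other probe sets. They hold no spread between replicate cultures.

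The labels were checked against marker genes. Pou5f1, which encodes the pluripotency factor OCT4, read between 5672 and 6764 on all 6 arrays, while the naive marker Zfp42 fell with time in both conditions, with 4237, 944 and 516 in DKK + dox and 4141, 927 and 495 in DKK at 6, 12 and 24 hours. The probe set of Snai1 read between 10.9 and 32.9 on all arrays, all of it low signal; its place relative to the inserted cDNA is unknown here, so the induction itself is unchecked. Cdh1, which encodes the E-cadherin that Snail is known to repress, read 3464, 2868 and 3063 in DKK + dox and 4481, 5957 and 6222 in DKK. In RNA from whole cultures, fewer cells of a type and less RNA per cell cannot be told apart.

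Snail binds E-boxes with the letters CAGGTG, or CACCTG on the other strand. The promoter windows of the 8 genes were searched for these letters, using the RefSeq sequences of build GRCm38.p6 that run from 250 bases before to 50 bases after each start site. The 8 genes have 15 windows, and 3 of them hold at least 1 such E-box, in Dnmt1, Dnmt3b and Dnmt3l; of all 32851 windows of 300 bases, 20.2% hold at least 1 and 2.88% hold 2 or more. The windows of Dnmt3b and Dnmt3l are shown because both hold the letters while their dox results differ, with the E-boxes in capitals. The only Dnmt3b window lies at chr2:153649199-153649498 on the + strand, with its E-box at position -247 from the start site. The first of 3 Dnmt3l windows lies at chr10:78042037-78042336 on the + strand, with E-boxes at positions -162 and 21.
Dnmt3b: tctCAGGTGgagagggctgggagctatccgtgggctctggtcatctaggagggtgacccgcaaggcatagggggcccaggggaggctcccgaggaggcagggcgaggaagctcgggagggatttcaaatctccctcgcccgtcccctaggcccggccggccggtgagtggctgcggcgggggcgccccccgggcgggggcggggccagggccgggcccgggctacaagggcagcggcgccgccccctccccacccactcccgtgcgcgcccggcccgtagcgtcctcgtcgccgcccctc
Dnmt3l: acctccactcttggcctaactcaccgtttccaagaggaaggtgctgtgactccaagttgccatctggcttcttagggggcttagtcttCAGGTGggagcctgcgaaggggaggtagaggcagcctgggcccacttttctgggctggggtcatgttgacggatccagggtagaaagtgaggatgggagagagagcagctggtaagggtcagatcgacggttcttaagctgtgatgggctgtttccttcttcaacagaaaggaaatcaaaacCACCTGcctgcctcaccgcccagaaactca
The Dnmt3b window holds 30 CpG dinucleotides and the Dnmt3l window 6, against a median of 7 over all windows. The Dnmt1 window with an E-box, at chr9:20959839-20960138 on the - strand, is 1 of 3 start sites of that gene, and no window of Dnmt3a, Uhrf1, Tet1, Tet2 or Tet3 holds these letters. A match of letters is a description of the window and not a binding site.

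**Figure D1:**
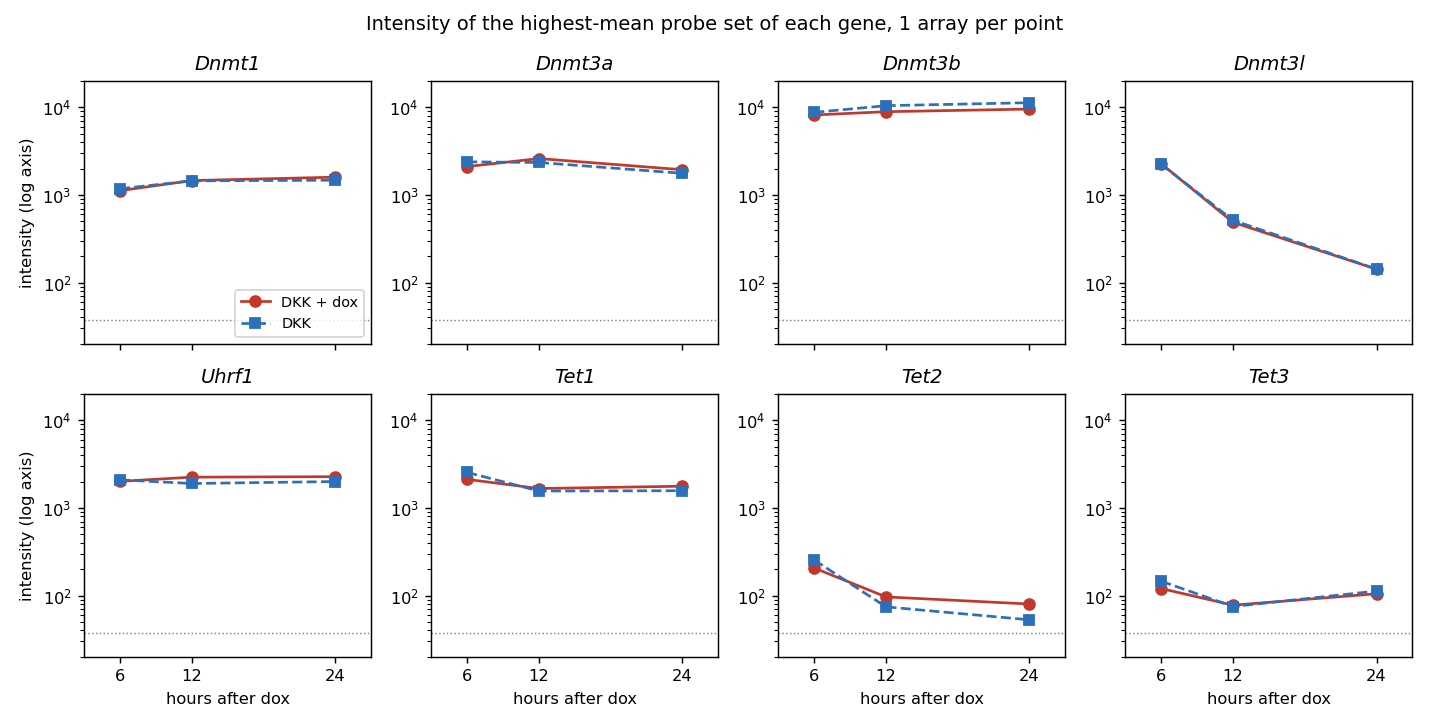
Hours after dox against intensity (log axis) for the probe set with the highest mean of each gene, 1 array per point, with DKK + dox as solid red lines with circles and DKK as dashed blue lines with squares; the dotted line is the low-signal limit of 37.2. Dnmt3l ended at 142 in both conditions, Dnmt3b was at or above 8197 on every array, and Tet2 ended at 80.1 in DKK + dox and 52.9 in DKK.

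Among the de novo enzymes, Dnmt3b rose with time in DKK, Dnmt3l fell more than 15-fold, and the 5 probe sets of Dnmt3a did not move together. The only probe set of Dnmt3l (1425035_s_at) read 2267, 487 and 142.07 in DKK + dox and 2238, 514 and 142.40 in DKK at 6, 12 and 24 hours. The 2 conditions nearly coincided at each time, and all of the spread lay along time. The intensity at 6 hours was 16.0 times that at 24 hours in DKK + dox and 15.7 times in DKK. The fitted log2 change in DKK was -2.12 at 12 hours against 6 hours (SE 0.10, adjusted p = 6.3e-05 from limma) and -3.79 at 24 hours against 6 hours (SE 0.10, adjusted p = 3.93e-06 from limma). The further step between 12 and 24 hours, -1.67, also passed (adjusted p = 0.00369 from limma), a call that is lost with no intensity trend in the variance. Of 26362 probe sets, 1 had a lower fitted change between 6 and 24 hours than Dnmt3l, and 2 had a lower one between 12 and 24 hours. The dox difference of Dnmt3l was 0.02, -0.07 and 0.00 at the 3 times, and the fitted value of -0.03 (SE 0.12) did not pass (adjusted p = 0.921 from limma).

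Dnmt3b was read by 2 probe sets. The brighter (1449052_a_at) read 8197, 8927 and 9572 in DKK + dox and 8775, 10464 and 11318 in DKK, and the other (1418351_a_at) read 2944, 2695 and 2971 in DKK + dox and 3209, 3718 and 4155 in DKK. Each read lower in DKK + dox at all 3 times, and the gap was wider at 12 and 24 hours than at 6 hours. In DKK both rose between 6 and 24 hours, by a fitted log2 0.40 (SE 0.05, adjusted p = 0.00122 from limma) for the brighter and 0.40 (SE 0.08, adjusted p = 0.00944 from limma) for the other. The measured dox differences were -0.10, -0.23 and -0.24 for the brighter probe set and -0.12, -0.46 and -0.48 for the other. The fitted differences of -0.29 (SE 0.05, adjusted p = 0.0126 from limma) and -0.57 (SE 0.09, adjusted p = 0.00693 from limma) passed, and both exceed the measured ones at 24 hours because the proportional line takes in the 12 hour arrays. Both calls are lost when the dox difference is held constant over time (adjusted p = 0.0709 and 0.0776 from limma), with linear time (adjusted p = 0.131 and 0.0608 from limma) or with no intensity trend in the variance (adjusted p = 0.253 and 0.112 from limma), and that of the brighter probe set also with arrays centred on their medians (adjusted p = 0.0576 from limma).

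Dnmt3a was read by 5 probe sets that all cite the same source sequence. Where each lies in the transcripts was not analysed here, so whether they read the same stretch is unknown. The 2 brightest fell slightly with time. The probe set 1423064_at read 2111, 2605 and 1942 in DKK + dox and 2390, 2349 and 1768 in DKK, and 1423066_at read 2320, 1715 and 1859 in DKK + dox and 2507, 1758 and 1618 in DKK. In DKK their fitted log2 change between 6 and 24 hours was -0.32 (SE 0.09, adjusted p = 0.0369 from limma) and -0.51 (SE 0.09, adjusted p = 0.005 from limma). The conditions overlapped in both, and neither passed for dox (adjusted p = 0.497 and 0.509 from limma).

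The 3 dimmer probe sets of Dnmt3a differed more between the conditions. The probe set 1423063_at read 379, 761 and 993 in DKK + dox and 504, 502 and 502 in DKK. It lay between 502 and 504 in DKK, while in DKK + dox it was higher at each later time and reached 1.98 times the DKK intensity at 24 hours. The probe set 1460324_at read 376, 994 and 1187 in DKK + dox and 546, 735 and 742 in DKK, higher at the later times in both, and 1423065_at read 543, 783 and 593 in DKK + dox and 808, 604 and 418 in DKK. All 3 were lower with dox at 6 hours and higher at 12 and 24 hours. The 2 brightest, 1423064_at and 1423066_at, were also lower at 6 hours (log2 -0.18 and -0.11) and higher at 24 hours (0.13 and 0.20), by smaller amounts. The log2 differences at 24 hours were 0.96, 0.66 and 0.48 for 1423063_at, 1460324_at and 1423065_at, after -0.39, -0.52 and -0.56 at 6 hours.

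The fitted dox difference of 1423063_at, 0.88 (SE 0.22), passed (adjusted p = 0.0425 from limma). Those of 1460324_at, 0.57 (SE 0.23, adjusted p = 0.169 from limma), and 1423065_at, 0.40 (SE 0.24, adjusted p = 0.340 from limma), did not. The call of 1423063_at is lost without the 24 hour pair (adjusted p = 0.529 from limma), with a constant difference (adjusted p = 0.431 from limma), with linear time (adjusted p = 0.207 from limma) and with no intensity trend (adjusted p = 0.165 from limma). Without the 6 hour pair 1460324_at also passed, at 0.70 (adjusted p = 0.0140 from limma). A separate test of a dox difference that changes with time, in which 0.542% of all probe sets passed, called none of the 20; its lowest adjusted p among them was 0.124 from limma, for 1423063_at. For 1460324_at the fitted DKK change between 6 and 24 hours was 0.80 (SE 0.21, adjusted p = 0.0285 from limma), larger than the 0.43 measured between the DKK arrays, since the DKK + dox arrays enter that fit.

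**Figure D2:**
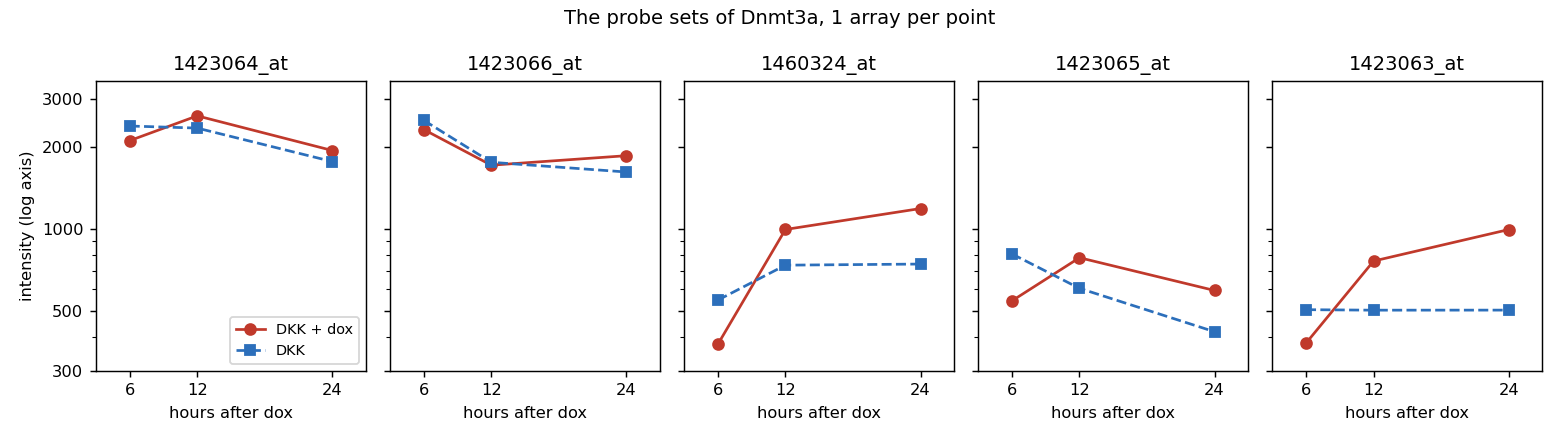
Hours after dox against intensity (log axis) for the 5 probe sets of Dnmt3a, 1 array per point, with DKK + dox as solid red lines with circles and DKK as dashed blue lines with squares. All 5 start lower in DKK + dox at 6 hours and end higher at 24 hours. The difference at 24 hours runs from log2 0.13 to 0.96 and is largest for 1423063_at.

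Markers of other cell types moved over the same arrays. The summed intensity of 14 parietal endoderm genes was 5796, 5234 and 7479 in DKK + dox and 6038, 4582 and 3948 in DKK, and 7 of the 14 were called higher with dox and 0 lower, where 8.19% of all 14755 genes were called higher and 6.37% lower. At 24 hours Sparc, Col4a1 and Col4a2 read 2132, 1184 and 662 in DKK + dox and 1259, 383 and 191 in DKK. These made up a large part of the difference between the sums at that time. The defining factors Gata4 and Gata6 read between 35.6 and 111 on all arrays, while Sox7 read 276, 54.5 and 356 in DKK + dox and 272, 53.9 and 25.1 in DKK. The fitted dox differences of Sox7 and of the parathyroid hormone receptor gene Pth1r were 2.33 and 2.49 (adjusted p = 0.0202 and 0.00145 from limma), and Sox7 and the laminin gene Lama1 fell in DKK, at -2.04 and -2.17 (adjusted p = 0.0129 and 0.000387 from limma). For 11 feeder fibroblast genes the sum was 1983, 2095 and 2772 in DKK + dox and 2354, 1420 and 1565 in DKK, with 3 of them low signal on every array and 2 of the 8 tested called higher with dox and 0 lower. Those were Col3a1, a fibrillar collagen gene, at 2.42 and the protease gene Mmp2 at 1.75 (adjusted p = 0.0027 and 0.00059 from limma). Mmp2 alone read 330, 772 and 1326 in DKK + dox and 255, 382 and 388 in DKK, a large part of the difference between the sums. The authors list Mmp2 among the mesenchymal and mesodermal genes that Snail induced. The other feeder genes tested were not called for dox, with fitted values from -0.58 to 0.44. Mmp2 also rose with time in DKK, at 0.60, while Col1a1 and S100a4 had changes of -0.98 and -0.77 (adjusted p = 0.00804, 0.0402 and 0.005 from limma). For 12 visceral endoderm genes, 3 of them low signal on every array, the sum was 3845, 1888 and 1899 in DKK + dox and 4166, 2528 and 2788 in DKK, with 0 of the 9 tested called higher and 1 lower, the apolipoprotein gene Apoe at -0.92 (adjusted p = 0.00162 from limma). Cubn and Amn, which encode the partners of an endocytic receptor, fell with time in DKK, at -2.17 and -1.19 (adjusted p = 0.000367 and 0.00302 from limma). Of the 7 core pluripotency genes 1 was called higher with dox, Dppa2 at 0.34, and 1 lower, Sox2 at -0.32 (adjusted p = 0.0115 and 0.0363 from limma). Dppa2 and Dppa4 fell with time in DKK, at -0.66 and -0.62 (adjusted p = 0.000271 and 0.0018 from limma). The sums of the parietal endoderm and feeder genes were lower in DKK + dox at 6 hours and higher at 12 and 24 hours, as in the 3 dimmer Dnmt3a probe sets. That order was not particular to those. Dnmt3a 1423064_at, all 3 Dnmt1 probe sets, Uhrf1 1415810_at, Tet1 1455425_at and both Tet2 probe sets had it too. The part of these cell types in the Dnmt3a and Dnmt3b differences was not tested.

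The maintenance pair showed smaller differences. Dnmt1 was read at 1120, 1462 and 1597 in DKK + dox and 1179, 1449 and 1475 in DKK by its brightest probe set (1422946_a_at), which rose in DKK by log2 0.38 between 6 and 24 hours (SE 0.08, adjusted p = 0.0134 from limma). The second probe set (1435122_x_at) read 770, 1066 and 928 in DKK + dox and 818, 963 and 881 in DKK. It passed between 6 and 12 hours, at 0.33 (SE 0.09, adjusted p = 0.0319 from limma), a call lost with a constant dox difference (adjusted p = 0.0686 from limma) and with no intensity trend (adjusted p = 0.11 from limma), and not between 6 and 24 hours, at 0.15 (adjusted p = 0.303 from limma). The third (1447877_x_at) lay between 390 and 478 on all 6 arrays and passed in no comparison. All 3 were slightly lower with dox at 6 hours and slightly higher at 12 and 24 hours, and none passed for dox, with adjusted p between 0.571 and 0.665 from limma.

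Uhrf1, whose protein reads hemimethylated DNA, read 2014, 2250 and 2280 in DKK + dox and 2098, 1905 and 2006 in DKK by its brighter probe set (1415810_at), and 785, 526 and 719 in DKK + dox and 692, 504 and 585 in DKK by the other (1415811_at). The brighter was level over time in DKK, with a fitted log2 change of -0.03 between 6 and 24 hours (SE 0.08), or 0.07 with arrays centred on their medians. The other dipped at 12 hours in both conditions, with a fitted change in DKK of -0.54 (SE 0.10, adjusted p = 0.00755 from limma). The dox differences of 0.22 and 0.28 did not pass (adjusted p = 0.177 and 0.184 from limma).

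Of the TET enzymes, Tet1 and Tet2 fell in DKK between 6 and 24 hours, by unequal amounts, and Tet3 did not pass. The largest fitted fall was that of Tet2. The brightest Tet1 probe set (1455425_at) read 2123, 1669 and 1774 in DKK + dox and 2549, 1562 and 1576 in DKK, and 1429448_s_at read 1537, 636 and 603 in DKK + dox and 1873, 788 and 593 in DKK. Most of the fall came between 6 and 12 hours in both. Between 6 and 24 hours in DKK the fitted changes were -0.51 (SE 0.11, adjusted p = 0.0122 from limma) and -1.42 (SE 0.14, adjusted p = 0.000504 from limma). The third, 1419896_at, read 245, 126 and 145 in DKK + dox and 354, 145 and 145 in DKK and fell by 0.87 (SE 0.19, adjusted p = 0.0158 from limma), while 1419897_at lay near the low-signal limit, between 36.2 and 71.0, and did not pass. The fitted Tet1 fall thus ran over a range among probe sets of 1 gene. None passed for dox, with adjusted p between 0.416 and 0.704 from limma.

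Tet2 was read at 206, 96.6 and 80.1 in DKK + dox and 255, 74.3 and 52.9 in DKK by 1455300_at, and at 72.7, 39.2 and 51.0 in DKK + dox and 76.8, 26.0 and 24.7 in DKK by 1438781_at, which is low signal in DKK at 12 and 24 hours. In DKK they fell by 1.69 (SE 0.19, adjusted p = 0.00104 from limma) and 0.98 (SE 0.21, adjusted p = 0.0141 from limma) on the log2 scale between 6 and 24 hours. With dox both were lower at 6 hours and higher at 12 and 24 hours, with measured log2 differences of 0.45 and 0.66 at 24 hours. The fitted dox values of 0.41 (SE 0.22) and 0.63 (SE 0.24) did not pass (adjusted p = 0.280 and 0.136 from limma). Tet3, the TET enzyme known from the oocyte and zygote, read 120, 77.7 and 105 in DKK + dox and 146, 75.0 and 113 in DKK. It dipped at 12 hours, by a fitted -0.65 in DKK (SE 0.16, adjusted p = 0.0241 from limma), and at 24 hours did not differ past the test from 6 hours (adjusted p = 0.423 from limma).

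**Figure D3:**
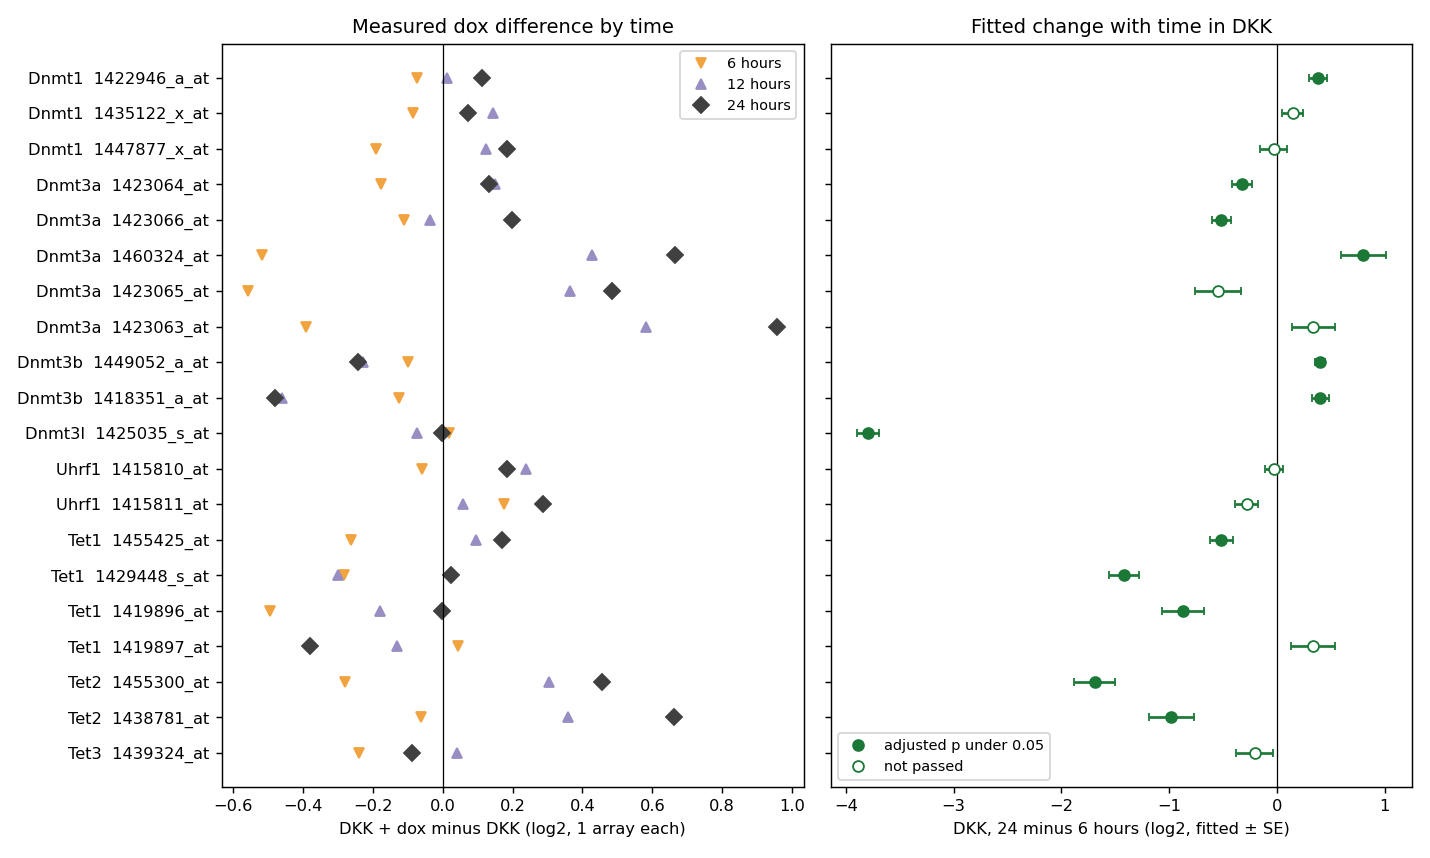
The left panel plots the log2 difference DKK + dox minus DKK for the 20 probe sets at 6, 12 and 24 hours, from 1 array each, and the right panel the fitted log2 change in DKK between 6 and 24 hours with its SE, filled where the adjusted p from limma was under 0.05. At 6 hours 3 of 20 points lie above 0, against 11535 of all 26362 probe sets. At 24 hours 14 do, against 13792 of all. The 20 points belong to 8 genes and are not independent. Dnmt3l stands alone at -3.79 on the right.

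Over the 20 probe sets, 4 rose and 8 fell in DKK between 6 and 24 hours, against 11.7% higher and 11.3% lower of all 26362 probe sets. Those that rose belong to Dnmt1, Dnmt3a and Dnmt3b, and those that fell to Dnmt3a, Dnmt3l, Tet1 and Tet2. With no intensity trend in the variance 4 of these 12 calls hold, those of Dnmt3l, Tet1 1429448_s_at and both Tet2 probe sets, and the other 8 have adjusted p between 0.0645 and 0.17 from limma. A constant dox difference ends the calls of Dnmt3a 1423064_at, Dnmt3b 1418351_a_at and Tet2 1438781_at (adjusted p = 0.0839, 0.185 and 0.0574 from limma), and centring arrays on their medians that of Dnmt3a 1423064_at (adjusted p = 0.12 from limma). Between 6 and 12 hours 4 rose and 9 fell, against 10.1% higher and 12.4% lower of all. The 4 that rose become 2 with a constant dox difference and 0 with no intensity trend, which leaves 7 that fell. Between 12 and 24 hours 0 rose and 1 fell (Dnmt3l), where 0.0228% of all were called higher and 0.129% lower. For dox, 1 was called higher (Dnmt3a) and 2 lower (Dnmt3b), against 6.81% higher and 5.12% lower of all, so the share of the 20 called for dox was near that background. No probe set of the 20 differed by 2-fold or more between the conditions at any time on the log2(intensity + 20.6) scale, while 777 of all probe sets were higher and 486 lower by that much with dox at 24 hours. Arrays centred on their medians turn the split of all time calls between 6 and 24 hours to 67.4% higher, against 50.8% as deposited, and between 6 and 12 hours to 68.4%, against 44.9%. That centring raises the median fitted change of all probe sets by 0.13 between 6 and 12 hours and by 0.10 between 6 and 24 hours. The median difference over the 20 was -0.15, 0.08 and 0.15 at 6, 12 and 24 hours for DKK + dox minus DKK, against -0.03, 0.00 and 0.02 over all probe sets.

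The fall of Dnmt3l and Tet2 ran beside that of the naive pluripotency genes. Of 17 such genes tested, 0 rose and 15 fell in DKK between 6 and 24 hours, with a median log2 change of -2.66, where 12.4% of all 14755 genes rose and 13.2% fell, each by its brightest probe set, with a median of -0.05. Their summed intensity was 26695, 13994 and 9365 in DKK + dox and 27686, 14145 and 9810 in DKK. Tcl1, a cofactor of AKT, fell by 3.71 (SE 0.20, adjusted p = 4.6e-05 from limma), and Zfp42 fell by 3.02 (SE 0.08, adjusted p = 3.93e-06 from limma). A fall over these hours was not particular to naive genes. Of the endoderm genes tested, 6 of 14 parietal and 5 of 9 visceral ones also fell in DKK, and 0 rose. Tet2 read higher with dox at 12 and 24 hours. The naive sum was lower with dox at each time, but Dppa5a made up most of it. Dppa5a read 14843, 11035 and 6998 in DKK + dox and 14922, 10493 and 7606 in DKK. Single naive genes went both ways at 24 hours, with Stat3 at 492 in DKK + dox and 204 in DKK, and Nr0b1 at 82.3 and 228. The median fitted dox difference of the 17 was 0.03, so the sum does not set Tet2 apart from these genes. With dox 1 naive gene was called higher, Stat3 at 1.21, and 2 lower, Fgf4 at -1.92 and Nr0b1 at -1.43 (adjusted p = 0.00178, 0.00286 and 0.00344 from limma). Of 16 epiblast genes 11 rose and 3 fell, among them the growth factor gene Fgf5, which rose by a fitted 3.21 (SE 0.53, adjusted p = 0.00488 from limma). Fgf5 read 106, 175 and 541 in DKK + dox and 354, 1244 and 1821 in DKK. Its fitted rise is larger than the one between the DKK arrays, since the DKK + dox arrays enter that fit. Fgf8 rose as well, at 1.93, while the Nodal antagonist gene Lefty2 and the ETS factor gene Etv4 fell, at -1.29 and -1.03 (adjusted p = 0.0128, 0.000142 and 0.00349 from limma). With dox 10 of the 16 epiblast genes were called lower and 0 higher, where 8.19% of all genes were called higher and 6.37% lower. The fitted dox differences of Fgf5 and Etv4 were -2.63 and -1.22 (adjusted p = 0.0273 and 0.00496 from limma). That of Fgf5 is larger in size than the gap between its 24 hour arrays, because the proportional line takes in the earlier arrays. The summed intensity of the epiblast genes was 14780, 15284 and 16152 in DKK + dox and 17522, 21800 and 22998 in DKK, so it was lower with dox at each time, as was Dnmt3b. The part of a changed share of such cells was not tested.

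The genes with the profiles most like those of Dnmt3l and Tet2, by root mean square distance of centred log2 values over the 6 arrays among 14754 genes, were compared for the only members spanning at least 1 log2 unit. For Dnmt3l they were AU018091 (distance 0.22), the F-box gene Fbxo15 (0.32) and the oocyte gene Ooep (0.34). AU018091 read 833, 152 and 59.9 in DKK + dox and 829, 158 and 56.8 in DKK. For Tet2 they were Ccn3, a secreted matrix-associated protein (0.08), the coagulation inhibitor gene Tfpi (0.09) and Ccdc74a (0.10). Ccn3 read 223, 105 and 73.4 in DKK + dox and 240, 69.8 and 54.6 in DKK, higher with dox at 12 and 24 hours as Tet2 was. That likeness follows from picking the genes on these same 6 arrays and is no separate evidence for a dox difference of Tet2.

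The proteins that read methylated CpG were tested by 8 genes, of which 1 was called higher with dox and 0 lower, and 1 rose and 2 fell with time in DKK between 6 and 24 hours. Over all 14755 genes 8.19% were called higher and 6.37% lower with dox, and 12.4% rose and 13.2% fell with time, so these counts lie near the background. The gene higher with dox was Mbd2, which encodes a methyl-CpG-binding subunit of the NuRD repressor. Mbd2 read 568, 489 and 608 in DKK + dox and 501, 273 and 265 in DKK. Mbd2 read higher in DKK + dox at all 3 times, and the fitted dox difference was 1.20 (adjusted p = 0.0027 from limma). In DKK Mbd2 fell by 0.84 (SE 0.13, adjusted p = 0.00361 from limma), a fall not seen between the DKK + dox arrays. Mbd4, a thymine glycosylase, fell by 0.77 in DKK (adjusted p = 0.00248 from limma), and Zbtb33, which encodes the methyl-CpG reader Kaiso, rose by 0.46 (adjusted p = 0.0132 from limma).

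Of 25 recruiters and regulators of the enzymes, 4 were called higher with dox and 1 lower, and 4 rose and 6 fell with time, where 8.19% higher and 6.37% lower for dox and 12.4% risen and 13.2% fallen with time were the shares of all genes. Prdm14, which is known in ESCs to repress Dnmt3b and Dnmt3l, read 85.9, 9.32 and 1 in DKK + dox and 73.5, 13.1 and 3.49 in DKK, and only the 6 hour arrays exceed the low-signal limit. Zfp57, which keeps methylation at imprinted loci, fell by 1.64 in DKK (SE 0.25, adjusted p = 0.00322 from limma). The CXXC zinc finger genes Cxxc4 and Cxxc5 rose by 0.62 and 0.52 (adjusted p = 0.0239 and 0.00508 from limma). With dox, Uhrf2, a paralog of Uhrf1, was higher by 0.52 and Cbx5, which encodes HP1 alpha, by 0.40 (adjusted p = 0.0425 and 0.0340 from limma), and the deubiquitinase gene Usp7 was lower, at -0.27 (adjusted p = 0.0484 from limma).

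Of 15 genes of demethylation and base excision repair, 1 was called higher with dox and 0 lower, and 1 rose and 4 fell with time, beside 8.19% and 6.37% of all genes for dox and 12.4% and 13.2% for time. The DNA ligase gene Lig1 was the one higher with dox, at 0.42 (adjusted p = 0.0107 from limma). Gadd45a, a stress-induced gene linked to demethylation, and Apobec2, a member of the cytidine deaminase family, had fitted changes in DKK of -1.25 and -1.33 (adjusted p = 0.00278 and 0.00663 from limma), while Parp1 rose by 0.44 (adjusted p = 0.00222 from limma).

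Of 13 genes of the methyl donor cycle, which makes the S-adenosylmethionine that the methyltransferases use, 0 were called higher with dox and 4 lower, and 2 rose and 4 fell with time, beside 8.19% higher and 6.37% lower of all genes for dox and 12.4% and 13.2% for time. Gldc, the glycine decarboxylase that feeds 1-carbon units, had 801, 547 and 394 in DKK + dox and 966, 970 and 1307 in DKK. It fell with time under dox while it rose in DKK, and the fitted dox difference was -1.64 (adjusted p = 0.000578 from limma). The rise of Gldc in DKK was 0.33 (adjusted p = 0.0479 from limma). Gnmt, which consumes the methyl donor, was lower as well, at -1.42 (adjusted p = 0.0363 from limma), though 2 of its 3 DKK + dox arrays are low signal. Mthfd2, a mitochondrial folate enzyme, read 1018, 623 and 466 in DKK + dox and 1066, 854 and 817 in DKK and fell with time by 0.44 (adjusted p = 0.0166 from limma). It was also among the 4 called lower with dox, at -0.78 (adjusted p = 0.00507 from limma). Shmt1, the cytosolic serine hydroxymethyltransferase, fell by 0.65 in DKK, and Ahcyl1 rose by 0.35 (adjusted p = 0.00215 and 0.0238 from limma).

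Of 17 germline genes known to be silenced by promoter methylation, 2 rose and 7 fell in DKK between 6 and 24 hours, with a median log2 change of -0.56, where 12.4% of all genes rose and 13.2% fell with a median of -0.05. With dox 1 was called higher and 1 lower, beside 8.19% and 6.37% of all genes. Hormad1, of the meiotic chromosome axis, fell by 2.38 (SE 0.17, adjusted p = 0.000141 from limma) and Tex19.1, of germ cell transposon control, fell by 2.19 (SE 0.10, adjusted p = 2.7e-05 from limma). Sycp3, of the synaptonemal complex, rose by 0.73 (adjusted p = 0.0154 from limma) and Ddx4, the Vasa helicase, by 0.46 (adjusted p = 0.0203 from limma). Ddx4 read 538, 885 and 1150 in DKK + dox and 510, 771 and 661 in DKK, higher with dox at each time (adjusted p = 0.0113 from limma), whereas Mael read 1459, 760 and 655 in DKK + dox and 1638, 1134 and 883 in DKK and was lower at each time (adjusted p = 0.034 from limma). No methylation was measured, so the state of these promoters is unknown.

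Dnmt1 and Uhrf1 are known to be highest in S phase, so replication genes were set beside them. Of 28 such genes 3 were called higher with dox and 1 lower, and 1 rose and 8 fell with time, beside 8.19% and 6.37% of all genes for dox and 12.4% and 13.2% for time, so the dox counts lie near the background. Their summed intensity was 89454, 83477 and 84415 in DKK + dox and 86619, 79341 and 80099 in DKK, the higher in DKK + dox at all 3 times. Cdc45, a replication factor gene, was higher with dox by 0.58 and the ligase gene Lig1 by 0.42, and the cyclin gene Ccne1 was lower, at -0.43 (adjusted p = 0.0368, 0.0107 and 0.0236 from limma). Cdc45 fell by 0.68 in DKK (SE 0.13, adjusted p = 0.00769 from limma) and Cdt1, of replication licensing, fell by 0.55 (SE 0.06, adjusted p = 0.0007 from limma), while Mki67, a proliferation marker, rose by 0.42 (adjusted p = 0.0248 from limma).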

How the data were processed

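Gene expression was measured on 6 Affymetrix Mouse 430 2.0 arrays, 1 for each condition and time. The authors processed them in dChip (normalization and modeling) and deposited linear intensities. For the dChip version and model form: not given in the sources used here. Array medians lay between 53.6 and 63.7. The number of arrays limits the precision. Names came from the platform annotation, and 34741 of the 34945 with 1 symbol matched RefSeq (GRCm38.p6) by Entrez ID, with 0 symbols changed. The 932 probe sets with several symbols and 9160 with none were not used.

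The log2(intensity + 20.6) values of 26362 probe sets were fitted with limma 3.58.1 in R 4.3.3 (lmFit, then eBayes with a trend on intensity; prior degrees of freedom 6), with p-values adjusted by the Benjamini-Hochberg method over all of them and a threshold of 0.05. In list counts each gene is its probe set with the highest mean. The script was tested on simulated data, where it recovered 36% of dox changes of log2 1 and 85% of log2 2. For 24 against 6 hours it recovered 43% and 90%. There were 7 false calls for dox and 6 for time. The simulated dox changes had the fitted form and the noise was drawn from the fit's own prior variance. Departures from that form were not simulated, so these shares do not cover genes where the form fails. The fitted dox differences of the 20 probe sets lay between -0.57 and 0.88, so one that did not pass is not shown to be absent. Promoter windows came from RefSeq, and plots were made in Python 3.11.15 (matplotlib 3.10.9).

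The 8 genes, the lists and the tests were chosen with earlier results of these data known. All probe sets of the 8 genes are named. From other lists, the genes named are the 2 with the largest called change each way for dox and for 24 against 6 hours. Pou5f1, Snai1, Cdh1, Gata4, Gata6, Dppa5a, Sparc, Col4a1 and Col4a2 were chosen after their values were seen. Some lists share genes (Mbd4, Lig1, Prdm14, Dppa3 and Pcna among those tested). Alternatives covered the offset, the filter, the normalization, the unit of the fit, the forms of the dox and time terms, the variance model and each time left out. Of genome sequence only the promoter windows were used, and no protein sequence.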

Additional observations from a re-analysis of the deposited data

How the results depend on the processing

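Among the probe sets of the 8 genes, 230 of the dox values under an alternative kept their direction and side of the threshold, 11 lost a call, 1 gained one and 4 changed sign; between 6 and 24 hours in DKK the numbers were 169, 12, 1 and 4, and between 6 and 12 hours 174, 8, 1 and 3. The dox counts of the 8 genes, 1 higher and 2 lower, became 0 and 0 with a constant dox difference, with linear time and with no intensity trend. Without the 24 hour pair 0 were higher, without the 6 hour pair 2 were higher, and median centring left 1 lower. Over all probe sets the 1796 higher and 1350 lower for dox became 32 and 127 with a constant difference, 216 and 125 with linear time, 397 and 128 with no trend, 434 and 896 without the 24 hour pair, and 888 lower without the 6 hour pair. Between 6 and 24 hours the 4 higher and 8 lower of the 8 genes became 0 and 4 with no trend. The 3079 higher and 2982 lower of all became 1394 and 1472 with no trend and 1805 and 1888 with 1 probe set a gene, where fewer were tested. Median centring gave 4411 higher and 2129 lower.

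The values that changed sign were called under no setting. For dox without the 24 hour pair they were Dnmt1 1422946_a_at (-0.0385), Dnmt3a 1423066_at (-0.146) and Tet1 1455425_at (-0.058), and without the 12 hour pair Dnmt3l (0.0017). Between 6 and 12 hours they were Dnmt3a 1423065_at (-0.0003) under quantile normalization and Uhrf1 1415810_at with a constant difference (0.0099) and median centring (0.11). Between 6 and 24 hours they were Dnmt1 1447877_x_at (0.0276 and 0.0695) and Uhrf1 1415810_at (0.0562 and 0.0729), with a constant difference and median centring. The fall of Dnmt3l between 6 and 24 hours passed under every alternative run, at -3.93 to -3.57. Its step between 12 and 24 hours was lost with no intensity trend. The cause of these changes was not tested, apart from the smaller number of arrays or probe sets named. The labels give no replicate numbers to pair by; arrays of the same time are paired through the time factor, and the setting with a constant difference is the analysis paired by time. On 37.5 to 41.3 percent of probe sets per array the signal was low, which limits Tet2 1438781_at and Tet1 1419897_at.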
